A study of Mus musculus with 6 samples.

Results

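The Z-disc genes described here are 10 genes that encode proteins of the sarcomeric Z-disc: Actn2, Actn3, Ldb3, Myoz1, Myoz2, Myoz3, Myot, Tcap, Xirp1 and Synpo2l. They were chosen by name, by matching these symbols to the gene identifiers of the deposited tables, and all 10 were found among 35976 genes. All 10 also passed the filter on low values, which asked for over 10 expected counts in 2 or more libraries and kept 17348 genes.

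The libraries were made from satellite cells (SCs), the stem cells of skeletal muscle, which were isolated from mouse hindlimb muscles by magnetic depletion of blood, endothelial and Sca1-positive cells and cultured in growth medium. The 3 NF-YA fl/fl libraries came from mice with loxP-flanked NF-YA alleles and no Cre. The 3 NF-YA cKO libraries came from mice with the same alleles plus Pax7-CreERT2, a tamoxifen-inducible Cre driven by the SC gene Pax7, so that the deletion was confined by design to cells that used the Pax7 promoter. All mice were 5 to 7 weeks old by the labels, and both genotypes received tamoxifen from a solution of 20 mg/ml. NF-YA gives the transcription factor NF-Y its contact with CCAAT sequences in DNA, and the comparison asks which transcripts depend on it in cultured SCs.

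The Z-disc anchors the thin filaments of neighbouring sarcomeres. The sarcomeric α-actinins cross-link actin and the N-terminal end of titin there, and PDZ-LIM proteins such as ZASP (the product of Ldb3), the myozenins (also called calsarcins or FATZ), myotilin and telethonin bind to α-actinin, filamin C or titin. These genes are switched on when myoblasts differentiate and are used as signs of a forming contractile apparatus, while non-muscle α-actinins serve stress fibres and adhesion sites in most cells.

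Library totals were between 26936230 and 41118984 expected counts. The Nfya entry for the deleted allele took 22.3% to 34.2% of Nfya counts in the NF-YA cKO libraries and 0 counts in the NF-YA fl/fl libraries, so that the deleted allele was seen only where the label gives it and other Nfya transcripts remained. All NF-YA cKO libraries carried Xist, at a mean of 50.7 TPM, a level scaled for transcript length and library against 0.0233 TPM, and nearly lacked Y-linked transcripts, whereas the NF-YA fl/fl libraries showed the opposite pattern. The genotype and the sex of the mice therefore cannot be told apart in these libraries. Summed TPM of 10 macrophage and leukocyte markers was 157 to 298 in NF-YA cKO and 4.13 to 17.9 in NF-YA fl/fl, with 9 of the 10 called higher (4.65% of all tested genes were), and no marker of this list was at 0 in NF-YA cKO. Of 9 tested SC and myoblast markers, Cdh15 and Des were called, both lower (7.67% of all tested genes were called lower). The list summed to 871 to 990 TPM in NF-YA cKO and 1380 to 1729 TPM in NF-YA fl/fl. These sums include Des, at 116, 104 and 141 TPM in NF-YA cKO and 590, 574 and 460 TPM in NF-YA fl/fl. Des is also one of the other Z-disc genes below, so that the sums are not separate from the genes described here. CPM are counts scaled to the library total with TMM normalization. In CPM, Pax7, Vcam1 and Sdc4 of this list were higher in each NF-YA cKO library than in any NF-YA fl/fl library. They were not called (log2 fold changes 0.94, 0.86 and 0.80, edgeR FDR = 0.00624, 0.0101 and 0.00446). Itga7, also not called, was lower in each NF-YA cKO library (log2 fold change -1.25, edgeR FDR = 0.0116), as were Cdh15 and Des. Over all tested genes, 29.1% had the higher arrangement and 26.2% the lower one. The part of sex and of these other cells in the values below was not tested. In bulk RNA, fewer cells of a type and less RNA per cell cannot be told apart.

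All but one of the Z-disc genes were downregulated in NF-YA cKO. Their summed level was 637, 589 and 460 TPM in NF-YA fl/fl replicates 1, 2 and 3, and 12.1, 12.7 and 20.6 TPM in NF-YA cKO replicates 1, 2 and 3. By edgeR's quasi-likelihood test, with a false discovery rate (FDR, Benjamini-Hochberg) under 0.01 and a log2 fold change below -1, 9 of the 10 members were called lower and 0 were called higher, against a background of 7.67% of tested genes called lower and 4.65% called higher. Other tools gave 9 members lower with DESeq2 (background 10.4%), 9 with limma on log2(TPM + 1) (4.06%) and 8 when the log2 fold change itself was tested for being beyond 1 (2.94%). Myoz3, the member with the lowest level in NF-YA fl/fl, was not called. For all 10 members, every NF-YA cKO library lay below every NF-YA fl/fl library, an arrangement found for 26.2% of all tested genes, while 29.1% had the opposite one. The median log2 fold change of the members was -4.90, beside -0.02 over all tested genes. It ranged from -7.96 for Actn2 to -1.14 for Myoz3.

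**Figure D1:**
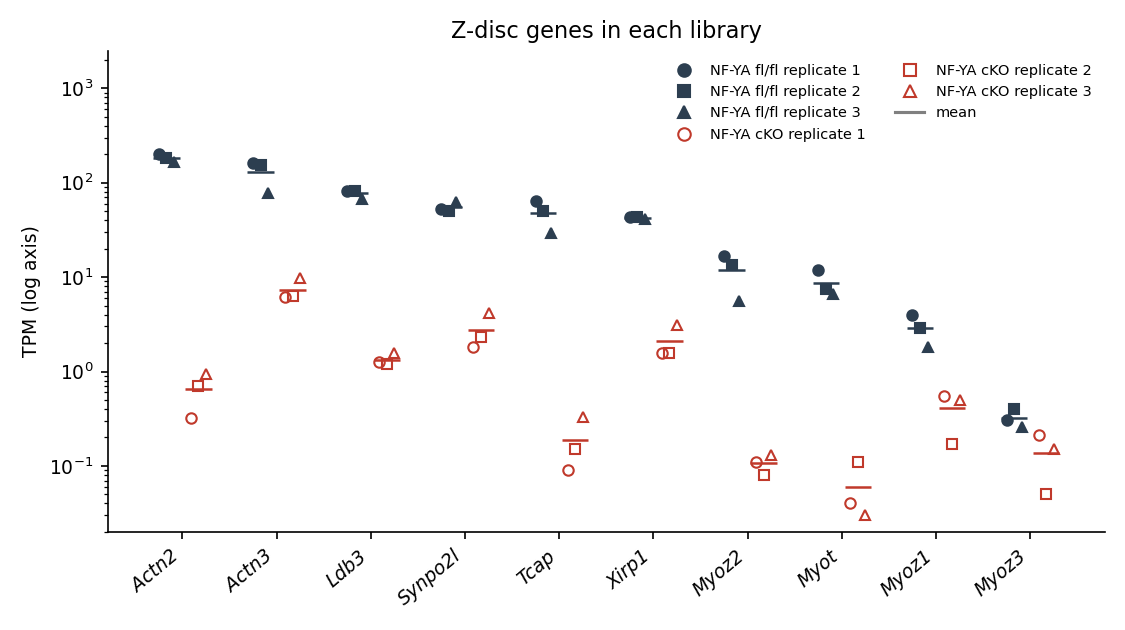
TPM on a log axis of the 10 Z-disc genes in each of the 6 libraries, ordered by their mean in NF-YA fl/fl, where a symbol is a library and a line the mean of 3. Filled symbols (NF-YA fl/fl) lie above the open symbols (NF-YA cKO) for each gene, and the gap is smallest for Myoz3.

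Sarcomeric α-actinins were the most abundant members in NF-YA fl/fl. Actn2, the α-actinin of all striated fibres and of the heart, was at 199.9, 185 and 167 TPM in NF-YA fl/fl replicates 1, 2 and 3. It was at 0.32, 0.71 and 0.95 TPM in NF-YA cKO replicates 1, 2 and 3, which are 25, 74 and 91 counts. The genotypes were far apart, and 0.359% of the mean TPM of NF-YA fl/fl was left. The log2 fold change was -7.96 (SE 0.37, n = 3 per genotype, edgeR FDR = 5.72e-05).

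Actn3, the α-actinin of fast glycolytic fibres, was at 162, 153 and 77.1 TPM in NF-YA fl/fl and 6.14, 6.34 and 9.69 TPM in NF-YA cKO. More of its level was left than of Actn2, 5.65% of the mean, and the log2 fold change was -4.03 (SE 0.28, edgeR FDR = 0.000218). The third NF-YA fl/fl library was the low one for Actn3.

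The balance within the pair was therefore reversed. Actn2 made up 55.2%, 54.7% and 68.5% of the summed TPM of Actn2 and Actn3 in NF-YA fl/fl replicates 1, 2 and 3, and 4.95%, 10.1% and 8.93% in NF-YA cKO replicates 1, 2 and 3. Actn3 was the higher of the pair in every NF-YA cKO library and the lower in every NF-YA fl/fl library. The mean share was 59.4% ± 7.8 (SD, n = 3) in NF-YA fl/fl and 7.98% ± 2.69 (SD, n = 3) in NF-YA cKO, a difference of -51.5 percentage points (exact two-sided permutation test, p = 0.1, the smallest that 3 against 3 libraries allow). Of the summed expected counts of the pair, Actn2 took 5.14% (95% Wilson interval 3.51 to 7.48), 9.1% (7.31 to 11.3) and 8.18% (6.71 to 9.93) in NF-YA cKO, and the intervals cover counting error only.

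The non-muscle α-actinins did not pass the test. Actn1, an α-actinin of stress fibres and adhesions, was at 149, 191 and 87.8 TPM in NF-YA fl/fl and 181, 135 and 151 TPM in NF-YA cKO (log2 fold change 0.25, SE 0.17, edgeR FDR = 0.264). Actn4, its close relative, was at 132, 185 and 142 TPM in NF-YA fl/fl and 148, 115 and 135 TPM in NF-YA cKO (log2 fold change -0.12, SE 0.12, edgeR FDR = 0.456). The libraries of the genotypes overlapped for both genes. As a description chosen after the values were seen, Actn2 and Actn3 together held 47.4% to 56.3% of the TPM of the 4 α-actinins in NF-YA fl/fl and 1.93% to 3.59% in NF-YA cKO.

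**Figure D2:**
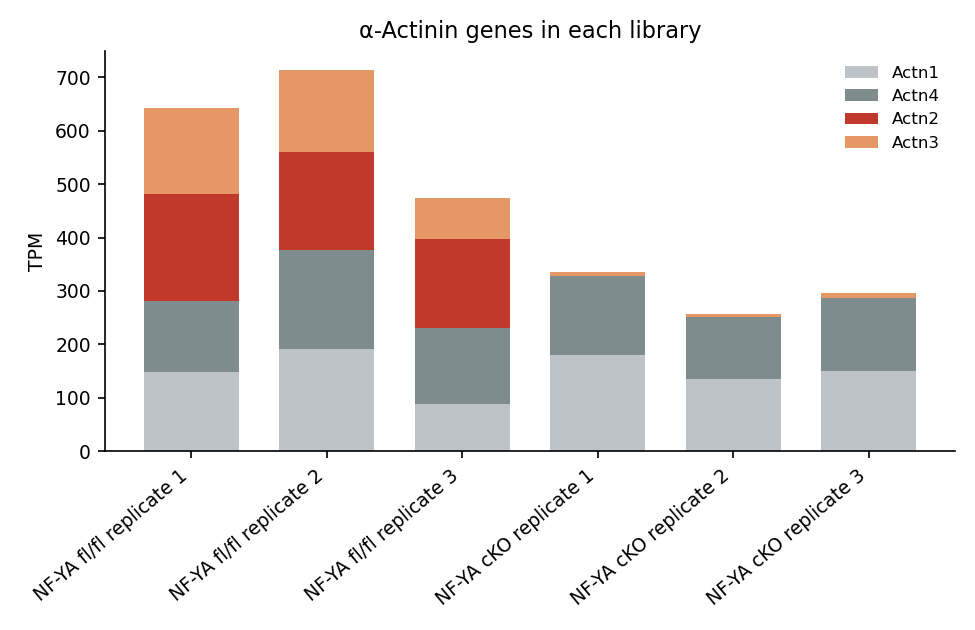
TPM of the 4 α-actinin genes in each library, stacked from 0, with non-muscle genes in grey and sarcomeric genes in red and orange. The sarcomeric part is 47.4% to 56.3% of each NF-YA fl/fl bar and at most 3.59% of each NF-YA cKO bar, while the grey parts of the genotypes overlap.

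Ldb3 encodes ZASP (also called Cypher), a PDZ-LIM protein that binds α-actinin through its PDZ domain. It was at 82.2, 82.3 and 67.6 TPM in NF-YA fl/fl and 1.26, 1.2 and 1.56 TPM in NF-YA cKO. Of the mean level, 1.73% was left, and the log2 fold change was -5.51 (SE 0.17, edgeR FDR = 2.15e-05), with the smallest standard error among the members.

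The make-up of Ldb3 transcripts differed between the genotypes as well. The gene lies on the minus strand of chr14:34526603-34588682 (GRCm38, the build also called mm10), and the files list 11 transcripts for it, of which 7 were matched to the GENCODE annotation. After a shared exon of 76 nt, a transcript continues either with a single exon of 359 nt (chr14:34576986-34577344) or with a group of small exons of 23 nt (chr14:34572990-34573012), 204 nt (chr14:34571718-34571921) and, in most of these transcripts, 15 nt (chr14:34569713-34569727). Both kinds rejoin at a shared exon of 170 nt. The 359-nt exon is known from the ZASP forms of heart muscle and the other group from those of skeletal muscle. The junctions that separate the kinds are shown from the GENCODE transcripts, with the last bases of the shared exon in lower case and the first bases of the alternative exon in capitals, followed by the whole 23-nt and 15-nt exons.
Junction to the 359-nt exon: atcccccaccagaagGACCCTGCTCTGGAC
Junction to the 23-nt exon: atcccccaccagaagGTGGTAGCCAATTCT
The 23-nt exon: GTGGTAGCCAATTCTCCAGCCAA
The 15-nt exon: GGCGTCTCCGCTGGC

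Transcripts with the 359-nt exon made up 8.73%, 10.1% and 10.2% of Ldb3 TPM in NF-YA fl/fl replicates 1, 2 and 3. They made up 64.0%, 60.5% and 60.6% in NF-YA cKO replicates 1, 2 and 3. The kind that was the smaller part in every control library was thus the larger part in every NF-YA cKO library. This grouping of transcripts was chosen after the values were seen and is given as a description with no test.

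In TPM, both kinds were lower in NF-YA cKO, with no overlap between the libraries of the genotypes. The summed TPM of transcripts with the 359-nt exon was 7.18, 8.31 and 6.92 in NF-YA fl/fl and 0.8, 0.72 and 0.94 in NF-YA cKO. The summed TPM of transcripts with the 204-nt exon was 71.6, 67.8 and 59.8 in NF-YA fl/fl and 0.45, 0.47 and 0.61 in NF-YA cKO. In NF-YA cKO the Ldb3 values rest on 149, 199 and 231 counts, and the assignment of a read to a transcript is an estimate of the RSEM software. Of these estimated counts, 70.2% (95% Wilson interval 62.7 to 77.2), 56.1% (49.3 to 63.0) and 52.1% (45.5 to 58.3) went to transcripts with the 359-nt exon, against 10.6% to 13.9% in NF-YA fl/fl. The 4 transcripts with no GENCODE match took 1.38% to 7.58% of Ldb3 TPM in NF-YA fl/fl and 0 in NF-YA cKO. Counting all of them with the 359-nt exon raised its share to at most 17.7% in NF-YA fl/fl, still below each NF-YA cKO library.

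**Figure D3:**
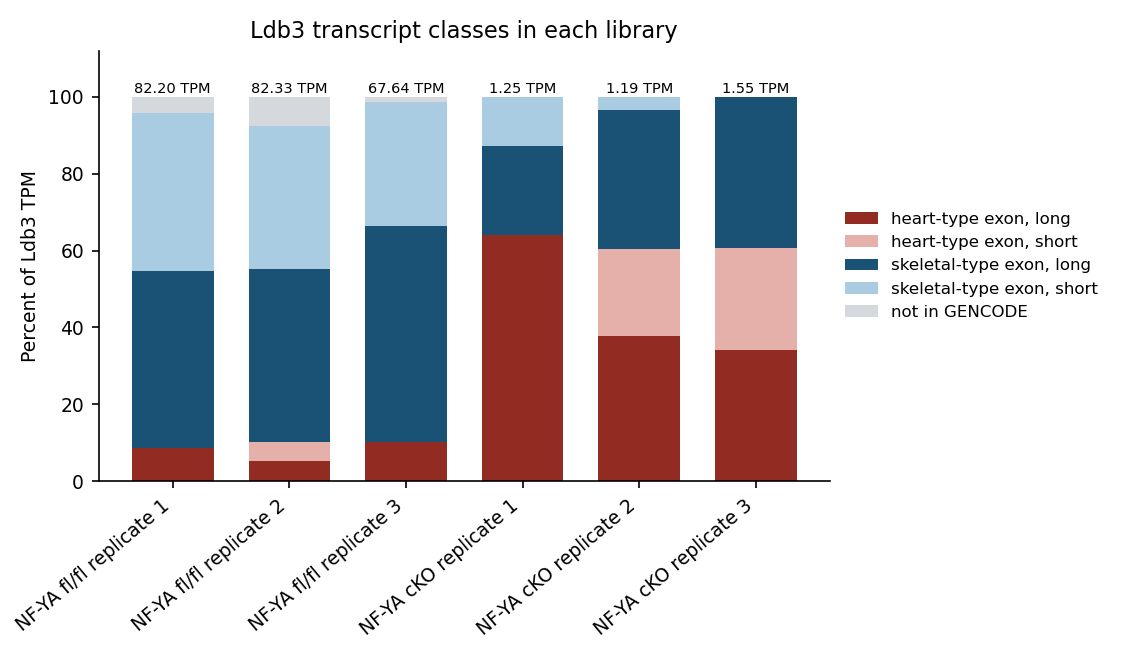
Percent of Ldb3 TPM in each library by transcript class, with Ldb3 TPM summed over its transcripts above each bar. Red classes hold the 359-nt exon (heart-type) and blue classes the 204-nt exon (skeletal-type), dark shades are long and light shades short transcripts, and red covers at least 60.5% of each NF-YA cKO bar and at most 10.2% of each NF-YA fl/fl bar.

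Single Ldb3 transcripts were less steady than these sums. NM_001039075.2, a short skeletal-type form, was the leading transcript in NF-YA fl/fl, with 41.2%, 37.2% and 32.2% of Ldb3 TPM, and held 12.8%, 3.36% and 0% in NF-YA cKO (exact two-sided permutation test, p = 0.1, the smallest possible). The mean difference was -31.5 percentage points of TPM and -13.4 points of expected counts. Its level fell by 8.77 on the log2 scale (SE 0.87, edgeR FDR = 0.00732 over all tested transcripts). NM_001039074.2, a long skeletal-type form, held 11.8%, 10.6% and 18.1% in NF-YA fl/fl and was at 0 in all NF-YA cKO libraries (share p = 0.1, exact permutation test, and edgeR FDR = 0.00651 for its level). These were the 2 Ldb3 transcripts called lower, where 1.01% of all tested transcripts were. Both calls were lost whichever of the 6 libraries was left out, with edgeR FDR of 0.0125 to 0.044.

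Among heart-type forms, the mix differed from library to library of NF-YA cKO. NM_001039071.2, a long form, was at 0 in all NF-YA fl/fl libraries and at a mean of 0.387 TPM ± 0.30 (SD, n = 3) in NF-YA cKO, which did not pass the test (edgeR FDR = 0.051). NM_011918.4, the other long form, held 8.73%, 5.28% and 10.2% of Ldb3 TPM in NF-YA fl/fl and 9.6%, 31.1% and 8.39% in NF-YA cKO (p = 0.5, exact two-sided permutation test). The genotypes overlapped for its share. NM_001039076.2, the short form, held 0%, 4.81% and 0% of Ldb3 TPM in NF-YA fl/fl and 0%, 22.7% and 26.6% in NF-YA cKO, where it rests on 0, 17 and 23.4 estimated counts. NM_001039071.2 made up 54.4%, 6.79% and 25.9% in NF-YA cKO. NM_001039072.2 and NM_001039073.2, long skeletal-type forms, overlapped between the genotypes too, with share differences of 2.3 and -4.95 percentage points (p = 0.9 and 0.7, exact two-sided permutation tests).

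The short transcripts have 1503 to 1623 nt and the long ones 4737 to 5040 nt. Short transcripts matched to GENCODE end before the exons that encode the LIM domains. Those with no match, among them the one of 1503 nt, were classed by length only. Short forms made up 44.9%, 47.5% and 33.5% of Ldb3 TPM in NF-YA fl/fl and 12.8%, 26.0% and 26.4% in NF-YA cKO. No library of a genotype reached the range of the other. The NF-YA cKO shares rest on few estimated counts, 5.87, 2.28 and 0 for NM_001039075.2 and 0, 17 and 23.4 for NM_001039076.2. The mean difference was -20.2 percentage points of TPM but -9.39 points of expected counts, which are not divided by transcript length. This grouping was also chosen after the values were seen. For comparison, the longer Xirp1 transcript held 72.8% to 80.8% of that gene's TPM in NF-YA fl/fl and 69.2% to 88.2% in NF-YA cKO, and the leading Synpo2l transcript held 56.5% to 61.4% and 62.5% to 73.1%.

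Of the other PDZ-LIM genes, only Pdlim3 was called. Pdlim3, which encodes the muscle α-actinin-associated LIM protein ALP, was at 117, 139 and 64.7 TPM in NF-YA fl/fl and 1.85, 2.47 and 5.3 TPM in NF-YA cKO (log2 fold change -5.01, SE 0.43, edgeR FDR = 0.000439). Pdlim1, Pdlim2, Pdlim4, Pdlim5 and Pdlim7, which are used outside muscle as well, were not called and had log2 fold changes of 0.68, -0.93, -0.59, -0.07 and -0.05.

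Myozenins tie α-actinin to calcineurin and filamin at the Z-disc. Myoz2, the form of heart and slow fibres, was at 16.6, 13.6 and 5.59 TPM in NF-YA fl/fl and 0.11, 0.08 and 0.13 TPM in NF-YA cKO, where it had 3, 3 and 5 counts. Its log2 fold change was -6.68 (SE 0.47, edgeR FDR = 0.000239). Relative to all counts, it was 100.5-fold higher in NF-YA fl/fl over the 3 libraries, with a 95% counting interval of 55.9 to 202.

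Myoz1, the form of fast fibres, was lower in level and in its change. It was at 3.93, 2.86 and 1.82 TPM in NF-YA fl/fl and 0.55, 0.17 and 0.5 TPM in NF-YA cKO, with 14.2% of the mean level left. The log2 fold change was -2.76 (SE 0.45, edgeR FDR = 0.00401). This call was lost in 4 of the 6 fits that left out a library (all but those without NF-YA fl/fl replicates 2 and 3), with FDR of 0.0145 to 0.0168, and when the change itself was tested for being beyond 1 on the log2 scale (FDR = 0.0253).

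Myoz3, another fast-fibre form, was at 0.31, 0.4 and 0.26 TPM in NF-YA fl/fl and 0.21, 0.05 and 0.15 TPM in NF-YA cKO. Its libraries did not overlap, but with 82 counts over the NF-YA fl/fl libraries and 45 over the NF-YA cKO libraries its log2 fold change of -1.14 (SE 0.42, edgeR FDR = 0.069) did not pass the test. Myoz2 made up 79.7%, 80.6% and 72.9% of myozenin TPM in NF-YA fl/fl and 12.6%, 26.7% and 16.7% in NF-YA cKO, a difference of -59.1 percentage points (p = 0.1, exact two-sided permutation test, the smallest possible). In TPM, Myoz2 was thus the main myozenin in each NF-YA fl/fl library and Myoz1 in each NF-YA cKO library, although the latter shares rest on 3 to 5 Myoz2 counts. In expected counts, Myoz1 was close to Myoz3 in NF-YA cKO replicates 1, 2 and 3, at 17, 8 and 22 against 18.6, 7.51 and 19.3.

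The transcripts of myotilin and telethonin nearly disappeared. Myot, which encodes an immunoglobulin-domain protein that binds α-actinin and filamin C, was at 11.9, 7.42 and 6.61 TPM in NF-YA fl/fl and 0.04, 0.11 and 0.03 TPM in NF-YA cKO, with 2, 9 and 2 counts. Its log2 fold change was -7.06 (SE 0.53, edgeR FDR = 0.000292), and the ratio per total count was 128 with a 95% counting interval of 74.7 to 241. Both of its relatives were called lower. Mypn (myopalladin, of striated muscle) was at 18.2 to 19.8 TPM in NF-YA fl/fl and 0.09 to 0.25 TPM in NF-YA cKO (log2 fold change -6.62, edgeR FDR = 0.00011). Palld (palladin, found in most adherent cells) was at 94.9 to 122 TPM and 28.0 to 45.7 TPM (log2 fold change -1.68, edgeR FDR = 0.000342).

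Tcap encodes telethonin, which caps the ends of titin molecules at the Z-disc, and lies at chr11:98383811-98384953. It was at 63.6, 50.3 and 29.5 TPM in NF-YA fl/fl and 0.09, 0.15 and 0.33 TPM in NF-YA cKO, with 2, 5 and 10 counts. The log2 fold change was -7.76 (SE 0.42, edgeR FDR = 8.74e-05). The ratio per total count was 208 with a 95% counting interval of 129.9 to 358, which overlaps the intervals of Myot and Myoz2. In mean TPM, Tcap and Actn2 kept the smallest parts of their NF-YA fl/fl level, 0.398% and 0.359%. Over the alternative fits, the log2 fold change of Tcap ran from -8.38 to -5.30. That of Myot ran from -8.09 to -3.15 and that of Myoz2 from -6.95 to -3.43, so that the order of these genes is not settled.

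Xirp1 and Synpo2l had log2 fold changes close to each other. Xirp1 encodes Xin, an actin-binding repeat protein of adhesion sites and of remodelling Z-discs, and lies at chr9:120013755-120023598. It was at 43.8, 43.1 and 41.5 TPM in NF-YA fl/fl, a narrow spread that holds in TPM only (coefficient of variation 2.81% in TPM and 18.4% in CPM), and at 1.56, 1.56 and 3.14 TPM in NF-YA cKO (log2 fold change -4.27, SE 0.34, edgeR FDR = 0.000366). Its relative Xirp2 was at 3.92 to 5.59 TPM and 0.53 to 0.95 TPM (log2 fold change -2.53, edgeR FDR = 0.000413).

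Synpo2l encodes CHAP, a synaptopodin-like protein that binds α-actinin. It was at 52.6, 50.4 and 62.4 TPM in NF-YA fl/fl and 1.82, 2.32 and 4.13 TPM in NF-YA cKO (log2 fold change -4.29, SE 0.38, edgeR FDR = 0.000519). In both genotypes the third library was the highest. Synpo2 (myopodin), a relative found in smooth and striated muscle, was at 6.28 to 8.41 TPM and 1.85 to 2.5 TPM (log2 fold change -1.64, edgeR FDR = 0.000634), and Synpo did not pass the test (log2 fold change -0.43, edgeR FDR = 0.643).

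The order of the levels differed between the genotypes. In NF-YA fl/fl it ran Actn2, Actn3, Ldb3, Synpo2l, Tcap, Xirp1, Myoz2, Myot, Myoz1, Myoz3, from 184 ± 16.3 to 0.323 ± 0.071 TPM (SD, n = 3). The ranges of Actn3 and Ldb3, of Synpo2l, Tcap and Xirp1 (each with the next), and of Myoz2 and Myot overlapped, and the other neighbours did not. In NF-YA cKO, Actn3 led at 7.39 ± 1.99 TPM, before Synpo2l, Xirp1, Ldb3, Actn2, Myoz1, Tcap, Myoz3, Myoz2 and Myot. There, Actn3 lay above Synpo2l in all libraries and Ldb3 above Actn2, while each of the other neighbours overlapped. Actn2 was the first gene in one order and the fifth in the other.

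The members also varied among the libraries of one genotype. Which library was low depended on the scale. In TPM, NF-YA fl/fl replicate 3 had the lowest level of 9 of the 10 members and the highest of Synpo2l. In CPM (counts scaled to the library total with TMM normalization, which edgeR uses), it was the lowest for 4 members, Actn3, Myoz1, Myoz2 and Tcap, and the highest for 3, Ldb3, Xirp1 and Synpo2l. The ratio of the highest to the lowest NF-YA fl/fl library was 2.97 in TPM and 2.45 in CPM for Myoz2, 2.16 and 1.77 for Tcap, and 1.06 and 1.45 for Xirp1. In the same library Myod1, the myoblast transcription factor, was at 632 TPM, against 240.1 and 239.6 TPM in the other NF-YA fl/fl libraries, and the summed fibro-adipogenic markers were at 188 TPM against 493 and 780 TPM. Without this library, 9 members were called lower. In NF-YA cKO, replicate 3 had the highest TPM of 7 members.

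**Figure D4:**
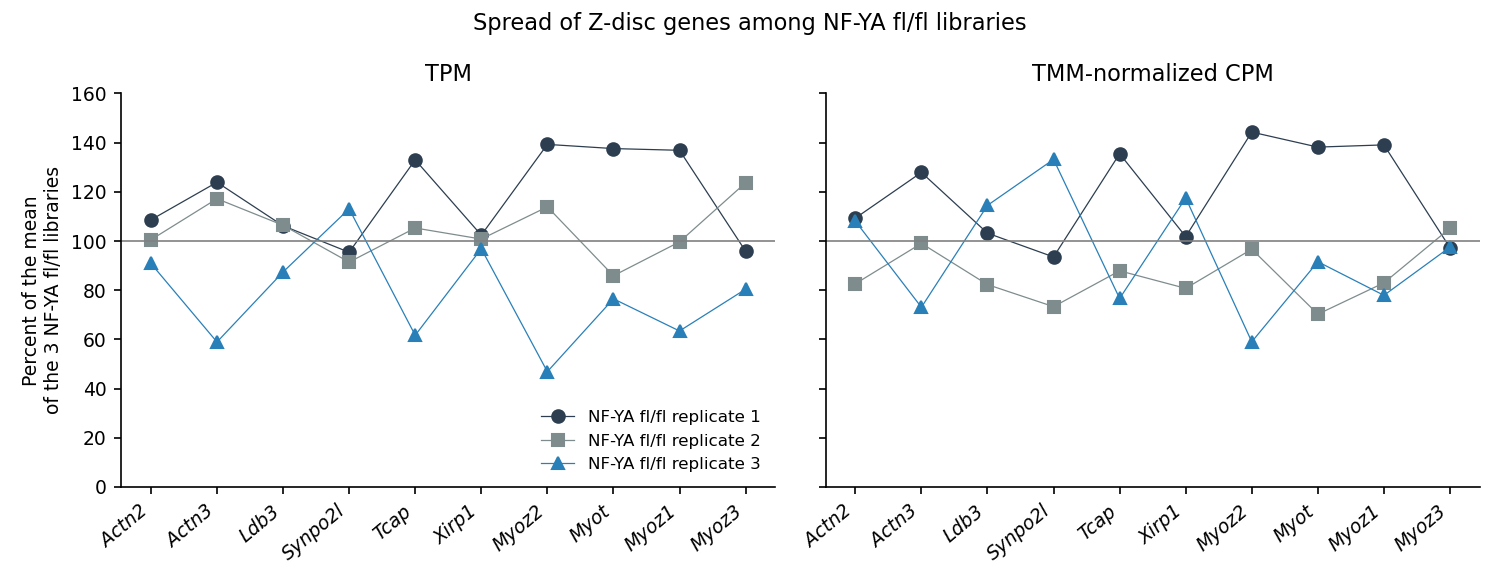
Level of each Z-disc gene in the 3 NF-YA fl/fl libraries as percent of their mean, in TPM (left) and TMM-normalized CPM (right), where lines join the genes of a library for reading only. Replicate 3 is lowest for 9 genes in TPM but for 4 in CPM, and it is low on both scales for Myoz2, at 46.9% and 59.0%.

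Among 36 other Z-disc and Z-disc-linked genes, 22 were called lower and 0 higher, with a median log2 fold change of -2.37, against the same 7.67% of all tested genes called lower. The 6 with the highest mean in NF-YA fl/fl were Des, Ttn, Ankrd1, Flnc, Cryab and Neb. Ttn, the titin gene, fell from 355 to 495 TPM in NF-YA fl/fl to 6.89 to 14.8 TPM (log2 fold change -5.30, edgeR FDR = 0.000172), and Neb, which encodes the thin-filament ruler nebulin, had a log2 fold change of -5.64 (edgeR FDR = 8.86e-05). Des (desmin, the muscle intermediate filament) and Flnc (filamin C) fell less, with log2 fold changes of -2.09 and -2.27 (edgeR FDR = 0.000218 and 0.00142).

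Some abundant genes of this list did not pass the test. Ankrd1, a stretch-responsive cofactor that binds titin, was at 351 to 566 TPM in NF-YA fl/fl and 575 to 696 TPM in NF-YA cKO (log2 fold change 0.55, edgeR FDR = 0.191). Cryab, which encodes the chaperone αB-crystallin, had a log2 fold change of -0.54 (edgeR FDR = 0.0214). The capping protein genes Capza1, Capza2 and Capzb, which are used in all cells, had log2 fold changes of 0.13 to 0.21 and were not called. Nebl, which encodes nebulette, was at low level and had a log2 fold change of 1.68 that missed the FDR limit (edgeR FDR = 0.0221), although it was called higher by DESeq2, at an FDR of 0.05 and without NF-YA fl/fl replicate 2. Ankrd1 was called higher when NF-YA fl/fl replicate 3 was left out (log2 fold change 1.005, edgeR FDR = 0.00077).

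Of 15 genes that anchor actin outside the sarcomere, such as Zyx, Vasp, Tln1 and Flna, only Palld was called (1 lower and 0 higher), a share close to the 7.67% of all tested genes called lower, and the median log2 fold change was -0.12. Vcl (vinculin) had a log2 fold change of -0.67 (edgeR FDR = 0.00202), which is not past the fold limit. Some genes stand in both this list and the families above.

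**Figure D5:**
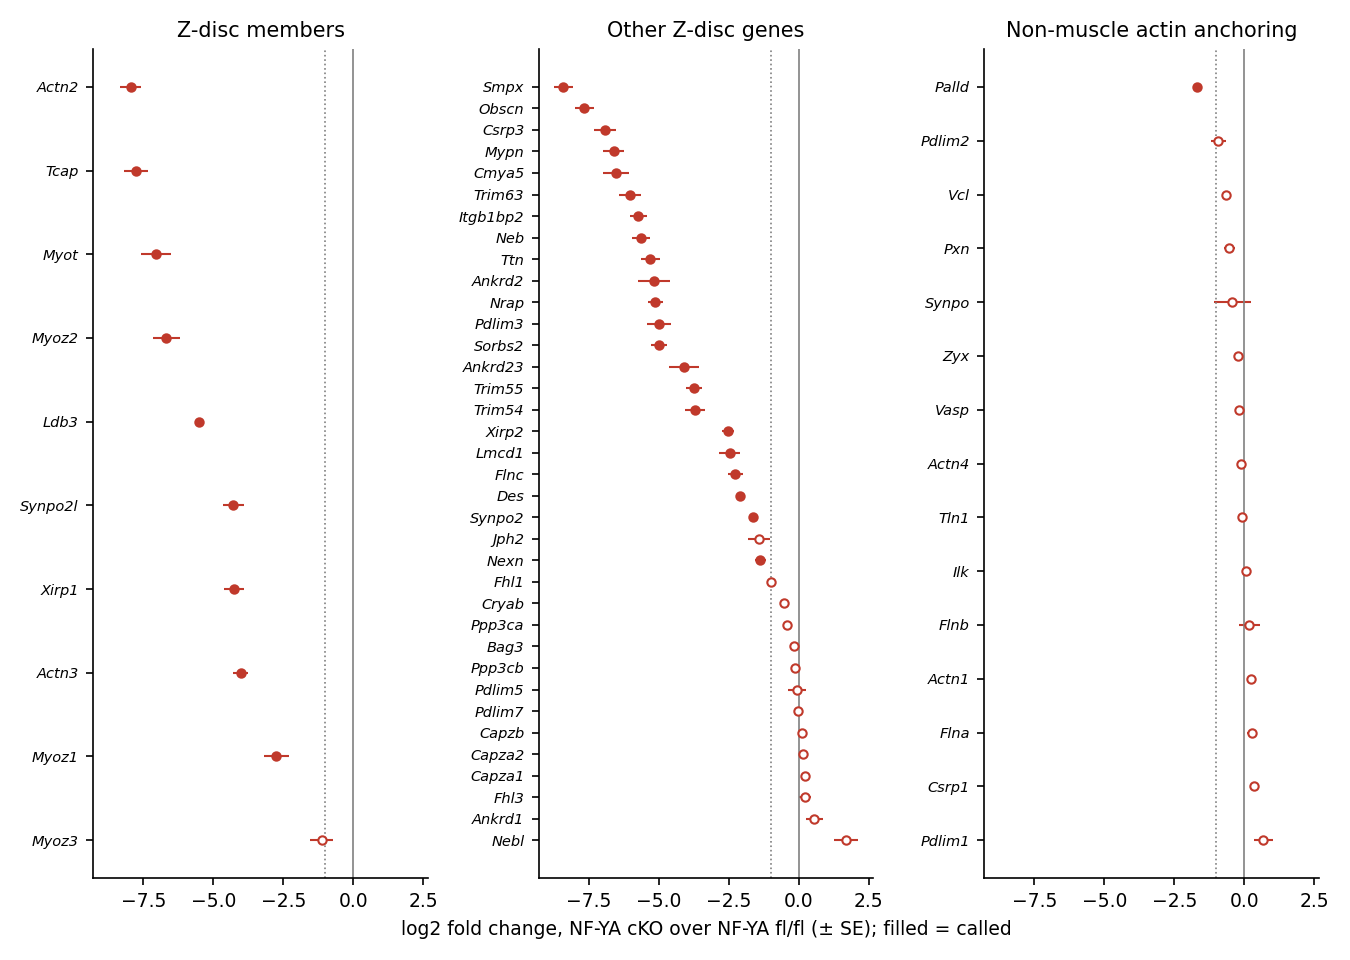
Log2 fold change (NF-YA cKO over NF-YA fl/fl, ± SE from edgeR) of the 10 Z-disc members, 36 other Z-disc genes and 15 non-muscle actin anchoring genes, with filled symbols for called genes and a dotted line at -1. Members lie between -7.96 and -1.14, while 14 of the 15 non-muscle genes are not called.

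The genes outside the list whose profile over the 6 libraries was closest to the mean profile of the members were Frmpd1, Tmem38a, Frem2, Cacng6 and Lmod2. The measure was the root mean square difference of log2(TPM + 1) values after centring each gene on its mean, which was 0.0829 to 0.126 for these 5 among 6916 genes with a mean of at least 10 TPM in NF-YA fl/fl. Tmem38a, which encodes the TRIC-A channel of the sarcoplasmic reticulum, fell by 4.03 on the log2 scale. Lmod2, which encodes the thin-filament protein leiomodin, fell by 5.71. Frem2, Frmpd1 and Cacng6 had log2 fold changes of -8.37, -5.61 and -5.57.

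Promoter sequence was available from RefSeq (GRCm38.p6) for 4 of the 10 members, Actn2, Ldb3, Myoz2 and Synpo2l, in 6 windows from 250 bases before to 50 bases after a start site. Both strands were searched for the E-box CANNTG bound by MyoD-family factors, for the E-box whose central letters make it CAGCTG, for the NF-Y motif CCAAT, and for the MEF2 and CArG (serum response factor) consensus motifs. The CCAAT motif was found in 2 of 6 windows, of Myoz2 and Synpo2l, and in 37.4% of 32851 windows of all genes. An E-box was found in 4 of 6 windows, against 72.3% of all, and CAGCTG in 2, against 16.3%. A MEF2 motif was found in 3 windows, of Myoz2 and Synpo2l, against 3.19% of all windows, and a CArG box in both overlapping windows of Ldb3, against 1.63%. The stretches that hold the rarer motifs are shown 5′ to 3′ on the strand of the gene, with MEF2, CArG and E-box letters in capitals.
Myoz2, MEF2 and E-boxes, chr3:123034991-123035020: CTATATATAGcCAGTTGatgtCAGCTGgat
Synpo2l, first start site, MEF2 and E-box, chr14:20668434-20668463: CTATAATTAGttctaggagtaacaCAGTTG
Synpo2l, second start site, MEF2 and E-box, chr14:20664689-20664718: TTATTTTTAGccaggcagacctcaCAGTTG
Ldb3, CArG, chr14:34588687-34588716: CCATTTATGGgcgcagcaagggcagatatc

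In Myoz2 the MEF2 motif began 33 bases before the start site and was followed by E-boxes that began 22 and 12 bases before it. In Synpo2l the MEF2 motif began 109 bases before one start site and 144 bases before the other, and the E-box at the end of each printed stretch began 85 and 120 bases before them. In Ldb3 the CArG box began 35 bases before one start site. Actn2, at chr13:12269426-12340760, had E-boxes only, which began 245, 84 and 48 bases before its start site. These matches describe letters in a window and were not tested as binding sites.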

How the data were processed

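RNA was extracted from cultured SCs in 6 preparations, 3 of each genotype, and stranded total RNA libraries were made. The labels do not tie libraries to single mice, so that p-values measure the spread between these libraries. For the deposited files the authors used Bowtie2 against mm10 transcripts, then RSEM, which splits a read among transcripts it matches. The deposited expected counts are neither normalized nor filtered, the deposited TPM values are scaled for transcript length and library, and the deposited percent values give each transcript's part of its gene's TPM.

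Expected counts were rounded, and features over 10 counts in 2 or more libraries (17348 genes, 45367 transcripts) were compared by edgeR 4.0.16 (TMM, quasi-likelihood test, genotype as the factor) in R 4.3.3. Calls needed FDR below 0.01 and a change beyond 1 on the log2 scale, as in the paper's Methods. The study itself used DESeq2. Shares were compared by exact permutation with scipy 1.17.1. Ratios of summed counts carry exact conditional intervals, and intervals cover counting error only. A library's floor of 3 counts corresponds to 0.0705 to 0.115 CPM. Counts were simulated over 17348 genes from edgeR's own model and its dispersions for these data, with equal numbers of genes raised and lowered. Of genes changed by a log2 fold change of 2, 93 of 100 were called, and 99 of 100 of those changed by 4. Of 16805 unchanged genes, 4 were called. In the data themselves 1331 genes were called lower and 806 higher, so that these rates describe the simulated setting only. The changed genes were drawn only from genes above a minimum mean CPM. Myoz1 and Myoz3 lie below that minimum, so that these rates do not apply to them.

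The genes named are all members, all members of their families and the 6 other Z-disc genes with the highest NF-YA fl/fl mean. Named as well are called non-muscle genes, the 5 nearest profiles and the called markers of SCs, myoblasts, pericytes and smooth muscle. The called macrophage and leukocyte, Schwann cell, endothelial and fibro-adipogenic markers are counted without names. Pax7, Vcam1, Sdc4, Itga7, Capza1, Capza2, Capzb, Nebl, Vcl, Zyx, Vasp, Tln1, Flna and Myod1 are further names, picked with their values in view. The members and lists were chosen with earlier results of these data known. Alternatives were DESeq2 1.42.0, its size factors, other filters, limma 3.58.1 on log2(TPM + 1) and log2(TPM + 0.1), an FDR of 0.05, edgeR's glmTreat with a log2 threshold of 1, a replicate block and leaving out each library. Protein sequences were not analysed here.

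For the lists of other cells, 9 of 10 macrophage and leukocyte, 4 of 6 Schwann cell, 2 of 5 tested endothelial and 1 of 8 fibro-adipogenic markers were called higher, and 1 of 5 tested pericyte and smooth muscle markers (Acta2) was called lower, where 4.65% of all tested genes were called higher and 7.67% lower.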

Additional observations from a re-analysis of the deposited data

How the results depend on the processing

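The 9 members called lower were 8 or 9 in all 16 alternative fits, where the lost call was Myoz1, and no member changed direction. The Actn2 and Myoz2 shares and the share of Ldb3 transcripts with the 359-nt exon kept their direction with expected counts and with any library left out, as did the counts of other Z-disc genes, 18 to 24. Over all genes, 704 were called lower and 231 higher with limma on log2(TPM + 1), 361 higher with log2(TPM + 0.1), 2025 lower at an FDR of 0.05, and 510 lower and 97 higher with a tested threshold of 1 on the log2 scale, against 1331 and 806. Leaving out a library gave 523 to 1684 lower and 177 to 890 higher, 1 to 2 non-muscle actin anchoring genes and 0 to 1 Ldb3 transcripts. Limma called 5 Ldb3 transcripts lower. With expected counts in place of TPM, the share difference of short Ldb3 transcripts was -9.39 in place of -20.2 percentage points and that of NM_001039075.2 -13.4 in place of -31.5, as counts are not divided by length. Among other Z-disc genes, 0 were called higher in the main fit. Nebl was called higher with DESeq2, at an FDR of 0.05 and without NF-YA fl/fl replicate 2. Ankrd1 was called higher without NF-YA fl/fl replicate 3. The cause of the other moves was not tested.

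The deviations of libraries of the same number had correlations of 0.22, -0.12 and 0.05, and those of unlike numbers ran from -0.19 to 0.17. With 3 libraries per genotype and no reference distribution, these values cannot settle whether the numbers pair the libraries. With the replicate block, 9 members, 947 genes lower and 625 higher were called, and 0 Ldb3 transcripts. Uncalled values near 0 changed sign: under the block Pdlim5 was at 0.0196 and Synpo at 0.015, and over the fits without a library Pdlim5 ran from -0.38 to 0.11, Pdlim7 from -0.12 to 0.0102 and Synpo from -0.93 to 0.35 on the log2 scale. The share difference of NM_001039072.2 was -0.21 percentage points with expected counts and -2.31 to 9.29 without a library, and that of NM_001039073.2 -13.6 to 4.52. At the depth of NF-YA cKO, Tcap, Myot and Myoz2 rest on 17, 13 and 11 counts over 3 libraries, which limits their ratios and the Myoz2 share.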
